A study of Mus musculus with 3 samples.

Results

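Mechanosensitive cation channels open when the membrane is stretched or sheared and let calcium, sodium or magnesium into the cell, and 10 genes for such channels, or for channels linked to stretch responses of vessels, were followed here. They were chosen by name from 32285 genes in the deposited matrices, and all 10 were found: Piezo1 and Piezo2, Trpc1 and Trpc6, Pkd1 and Pkd2, Trpm4 and Trpm7, and Tmem63a and Tmem63b. PIEZO1 is the main shear-sensing channel of endothelium, where its calcium signal is coupled to nitric oxide release, and it also acts in smooth muscle of small arteries. TRPC6 and TRPM4 are known for the depolarisation that narrows arteries under pressure, and the polycystins encoded by Pkd1 and Pkd2 are known for pressure sensing by vascular smooth muscle and flow sensing by cilia. Yoda1 is a small-molecule opener of PIEZO1, and sunitinib is an anticancer drug that blocks receptor tyrosine kinases such as those for VEGF and PDGF.

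The study profiled single cells from digested arteries of mice by droplet sequencing of the 3′ ends of transcripts, with 1 library per treatment. The groups were sunitinib plus Yoda1, sunitinib, and vehicle, all from WT mice and all labelled 3 weeks. The labels name 2 of the libraries only as Yoda1 and TKI, and these are taken as sunitinib plus Yoda1 and sunitinib because the stated design has no other treatments. The labels do not say how many mice were pooled, the dose, or the mice's age. With 1 library per group there is no replicate spread, so no p-value is given, and every interval below is a 95% interval of counting error alone. Each comparison therefore describes these libraries rather than the treatments.

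The sunitinib plus Yoda1 library stood apart from the other 2. It held 28364203 UMIs (unique molecular identifiers, 1 per captured transcript molecule), against 66769480 in sunitinib and 73901343 in vehicle, with 3130, 4148 and 3947 cells kept in that order of libraries and medians of 5452, 15903 and 16561 UMIs per kept cell. Cells were sorted into 6 classes by UMIs of marker genes, and the sunitinib plus Yoda1 library gave 401 endothelial, 67 smooth muscle, 196 fibroblast, 131 macrophage, 654 B and 432 T cells, whereas sunitinib gave 144 endothelial and 3552 smooth muscle cells and vehicle 115 and 3296, with under 50 cells in every other class. The gates held by independent markers, since Tagln, Cnn1, Myl9, Lmod1 and Smtn were all found in smooth muscle cells and summed to 17140, 22813 and 19671 CPM (UMIs scaled to 1000000 UMIs in the class's sum) in sunitinib plus Yoda1, sunitinib and vehicle, and Tie1, Egfl7, Kdr, Vwf and Emcn were all found in endothelial cells and summed to 2251, 2173 and 2173. The endothelial cells were nevertheless of unlike kinds: 5 capillary genes (Car4, Gpihbp1, Rgcc, Cd36 and Fabp4) summed to 15802 CPM in sunitinib plus Yoda1, 33.1 in sunitinib and 189 in vehicle, and 5 large-vessel genes (Vwf, Fbln5, Bmx, Gja5 and Eln) to 739, 4864 and 4665. Haemoglobin transcripts made up 3.23% of endothelial UMIs in sunitinib plus Yoda1, 0.000331% in sunitinib and 0.00124% in vehicle. The sunitinib plus Yoda1 matrix was also made with Cell Ranger 7.1.0 and the other 2 with 6.0.0, per the file headers. Treatment, cell makeup and software version cannot be told apart for this library. It shared 8 cell barcodes with the sunitinib library and 3 with the vehicle library, and the sunitinib and vehicle libraries shared 3.

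The promoters of the 2 genes on which most of the results turn, Piezo1 and Pkd1, are shown first. Both are the 250 bases before the RefSeq start (build GRCm38.p6), read 5′ to 3′ on the gene's strand, with the GC box GGGCGG on either strand and the TATA box TATAAA in capitals. Piezo1 lies on the minus strand and its window is chr8:122551330-122551579, and Pkd1 lies on the plus strand with the window chr17:24549700-24549949. In the GENCODE annotation used for gene positions here, Pkd1 starts at 24549834, inside that window. By that annotation the last part of the Pkd1 window, with some of its GC boxes, lies within the gene.
Piezo1: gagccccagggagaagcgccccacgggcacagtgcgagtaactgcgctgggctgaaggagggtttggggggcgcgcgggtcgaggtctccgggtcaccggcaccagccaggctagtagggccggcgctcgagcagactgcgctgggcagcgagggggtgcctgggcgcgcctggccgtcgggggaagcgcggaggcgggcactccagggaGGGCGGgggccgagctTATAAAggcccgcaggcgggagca
Pkd1: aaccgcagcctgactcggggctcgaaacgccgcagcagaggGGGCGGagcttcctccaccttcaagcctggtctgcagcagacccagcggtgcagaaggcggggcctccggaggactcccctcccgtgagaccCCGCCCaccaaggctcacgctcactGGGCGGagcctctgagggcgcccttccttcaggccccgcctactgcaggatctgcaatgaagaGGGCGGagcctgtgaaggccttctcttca
The Piezo1 window was 74% G and C with 1 GC box and the TATA box, and the Pkd1 window 67.2% with 4 GC boxes and no TATAAA. Of the 10 genes, 8 had a promoter to search, all but Piezo2 and Trpm4. A GC box was present in 5 of these 8 and in 32.7% of 32851 promoters, and the TATA box in 1 of 8, Piezo1, and in 12.4% of promoters. The CArG box, the motif of serum response factor, was matched in Tmem63a and Trpc6 and in 1.47% of promoters, the TEAD motif GGAATG in Pkd2 and in 12.6%, and the ETS motif CCGGAAG in none of the 8 and in 6.91%. Both strands were searched, no capital letter in the printed windows belongs to both motifs, and a match is a match of letters, not a bound site.

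**Figure D1:**
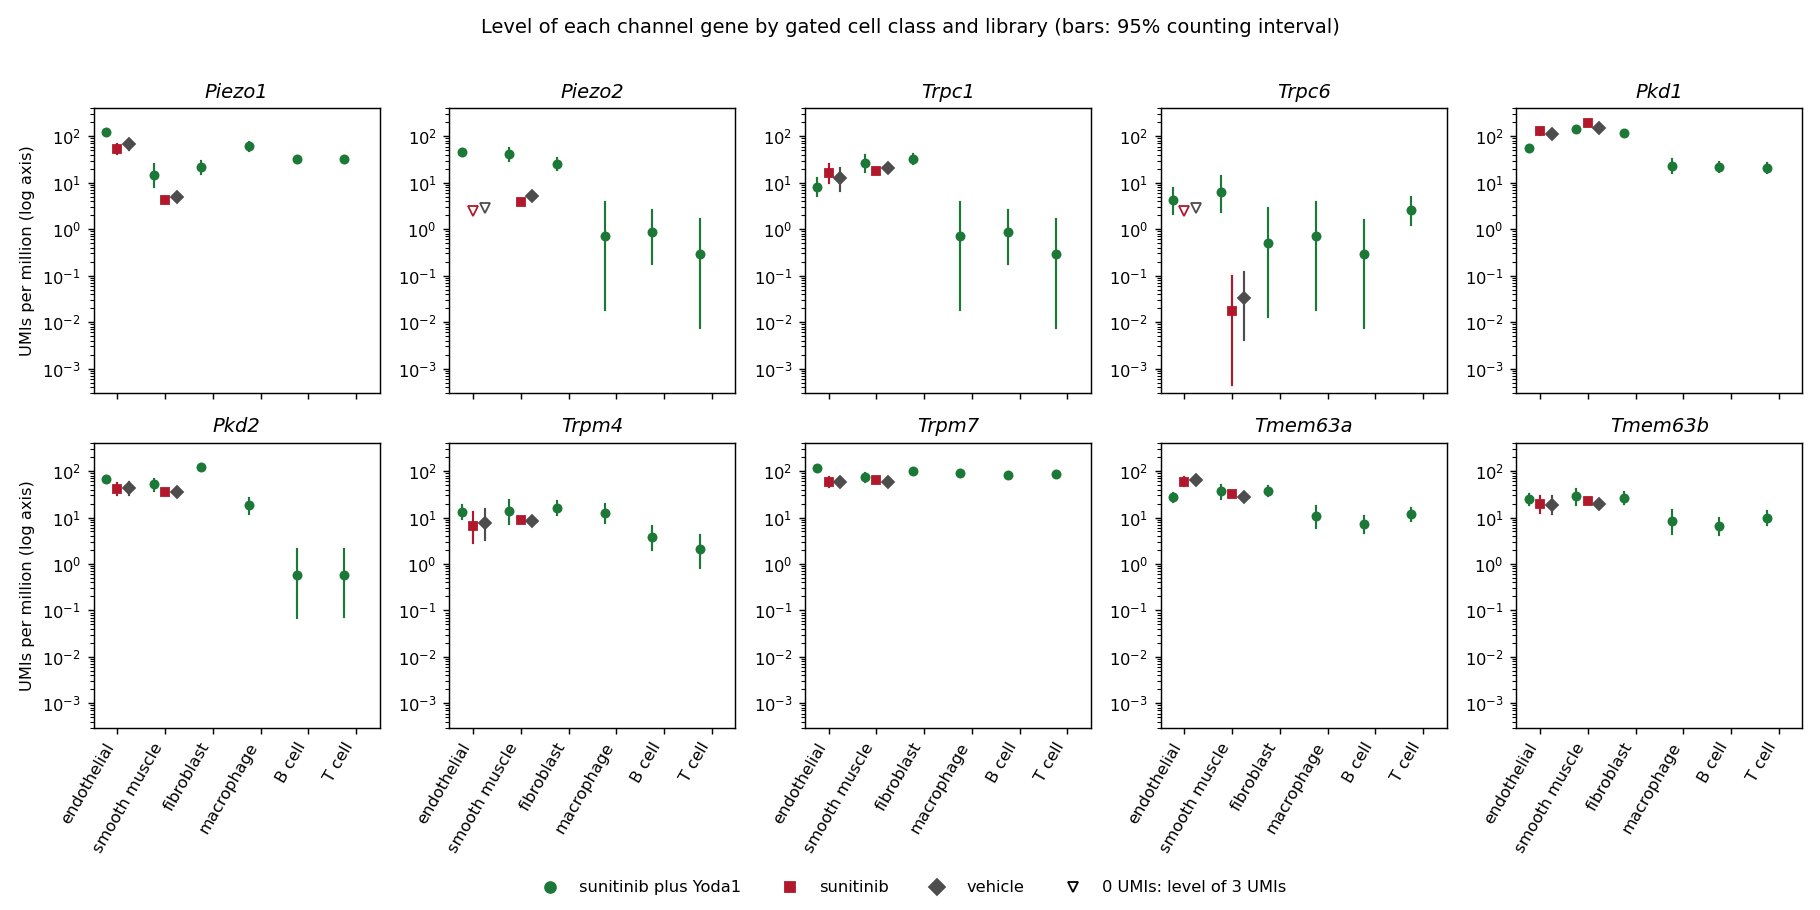
Level of each channel gene in each gated cell class, in CPM on a log axis, with green circles for sunitinib plus Yoda1, red squares for sunitinib and grey diamonds for vehicle. Vertical bars are 95% counting intervals and open triangles mark 0 UMIs, drawn at the level of 3 UMIs. Piezo1 sits higher in endothelial than in smooth muscle cells in all 3 libraries, and Pkd2 and Piezo2 are close to 0 in B and T cells. Trpm7 runs between 73.7 and 115 CPM across the classes of sunitinib plus Yoda1.

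Piezo1 (ENSMUSG00000014444, chr8:122481698-122551329, minus strand, on GRCm38 as all gene positions here) was higher in endothelial than in smooth muscle cells in all 3 libraries. In endothelial cells it stood at 121 CPM in sunitinib plus Yoda1 (311 UMIs, interval 108 to 135), 52.9 in sunitinib (64 UMIs, 40.8 to 67.6) and 66.6 in vehicle (70 UMIs, 51.9 to 84.1). In smooth muscle cells it stood at 14.7 in sunitinib plus Yoda1 (14 UMIs, 8.05 to 24.7), 4.31 in sunitinib (243 UMIs, 3.78 to 4.89) and 4.90 in vehicle (293 UMIs, 4.35 to 5.49). The lowest endothelial level lay above the highest smooth muscle level, and the share of all genes that do the same is not given here. The log2 ratio of endothelial over smooth muscle cells was 3.04 in sunitinib plus Yoda1 (2.27 to 3.93, 8.22-fold), 3.62 in sunitinib (3.20 to 4.02) and 3.77 in vehicle (3.37 to 4.15). Piezo1 overlaps Ctu2 and Gm20388 on the other strand and Gm26497 on its own, and of these the matrices list Ctu2. Counted per cell, 42.4% of endothelial cells had a Piezo1 UMI in sunitinib plus Yoda1 (170 of 401), 32.6% in sunitinib (47 of 144) and 39.1% in vehicle (45 of 115). After thinning to 2000 UMIs per cell these shares were 22.7%, 13.4% and 16.7%, against 1.05% and 0.893% of smooth muscle cells in sunitinib and vehicle.

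Among the 6 classes of the sunitinib plus Yoda1 library, Piezo1 followed the endothelial cells with 60.3 CPM in macrophages, 31.8 in B cells, 31.8 in T cells, 21.5 in fibroblasts and 14.7 in smooth muscle cells. In mouse macrophages PIEZO1 is known as a sensor of stiffness. The endothelial level stood above macrophages and the macrophage level above B and T cells beyond counting error, but B and T cells were not apart from each other, nor fibroblasts from smooth muscle cells. A Piezo1 UMI was carried by 13.8% of B cells and 19.4% of T cells, 5.96% and 7.23% after thinning, and since no class here is known to lack Piezo1, the background from free RNA cannot be read from these shares.

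Piezo2 (ENSMUSG00000041482, chr18:63010213-63387183, minus strand), which encodes the channel of touch and of inner-organ stretch in sensory neurons, was rare in arteries and lay in few cells. In endothelial cells it had 44.8 CPM in sunitinib plus Yoda1 (115 UMIs). It had 0 UMIs in both sunitinib and vehicle, with intervals up to 3.05 and 3.51 CPM. Smooth muscle cells held 41.0 CPM in sunitinib plus Yoda1 (39 UMIs), 3.92 in sunitinib (221 UMIs) and 5.16 in vehicle (309 UMIs). The sunitinib and vehicle libraries thus had Piezo2 in smooth muscle and none seen in endothelium. Of the 401 endothelial cells of sunitinib plus Yoda1, 20 held all 115 Piezo2 UMIs, with 39 in 1 cell. Those 20 cells also held 784 UMIs of Ccl21a, 408 of Mmrn1, 402 of Lyve1 and 218 of Reln, genes of lymphatic endothelium, whereas the other 381 held 82, 71, 215 and 34.

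Split by lymphatic genes after these values were seen, 17 endothelial cells with at least 2 of 7 such genes had 306 CPM of Piezo2 and the other 384 had 17.2, a log2 ratio of 4.15 (3.58 to 4.74). The 7 genes were Prox1, Mmrn1, Ccl21a, Reln, Pdpn, Flt4 and Lyve1. Pkd1 was also higher in the lymphatic cells, at 98.0 CPM against 50.8 (log2 ratio 0.95, 0.25 to 1.59), while Piezo1 had 81.7 against 125 with an interval that includes 0 (-1.35 to 0.04). Only 4 cells of sunitinib and 1 of vehicle met the same rule. In smooth muscle of sunitinib plus Yoda1, 8 of 67 cells held the 39 UMIs of Piezo2, with 12 in 1 cell. Elsewhere in that library Piezo2 had 25.6 CPM in fibroblasts (50 UMIs) and 1, 3 and 1 UMIs in all in macrophages, B cells and T cells.

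The TRPC genes encode calcium-permeable channels gated downstream of phospholipase C. Trpc1, whose product joins other TRPC subunits and is linked to store-operated calcium entry, had 8.18 CPM in endothelial cells of sunitinib plus Yoda1 (21 UMIs), 16.5 in sunitinib (20 UMIs) and 12.4 in vehicle (13 UMIs). In smooth muscle cells it had 26.3 in sunitinib plus Yoda1 (25 UMIs), 17.6 in sunitinib (995 UMIs) and 20.7 in vehicle (1237 UMIs). Endothelial cells were thus below smooth muscle cells in sunitinib plus Yoda1 (log2 ratio -1.69, -2.59 to -0.79), while the intervals for sunitinib (-0.81 to 0.54) and vehicle (-1.65 to 0.04) included 0. Fibroblasts of sunitinib plus Yoda1 had 32.7 CPM, not apart from smooth muscle cells, and macrophages, B cells and T cells had 1, 3 and 1 UMIs of Trpc1 in all.

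Trpc6, the diacylglycerol-gated channel known for pressure-induced constriction of small arteries, was almost absent from the arterial smooth muscle of sunitinib and vehicle. Endothelial cells held 11 UMIs in sunitinib plus Yoda1 and 0 in both other libraries. There were 6 UMIs in 67 smooth muscle cells of sunitinib plus Yoda1, 1 UMI in 3552 cells of sunitinib and 2 UMIs in 3296 cells of vehicle. These counts are too few for a ratio. All 9 Trpc6 UMIs of the T cell class came from 1 cell that also had 19 UMIs of Pdgfrb and 13 of Ebf2, which the other 431 cells of the class held at 2 UMIs each in all. Among cells that passed no gate in sunitinib plus Yoda1, 4 cells held 17 Trpc6 UMIs together with 102 UMIs of Rgs5 and 15 of Pdgfrb, against 107 and 11 in the other 554. Rgs5 and Pdgfrb are genes of pericytes and other mural cells.

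Pkd1 encodes polycystin-1, a large receptor-like membrane protein that pairs with the channel polycystin-2, the product of Pkd2, and loss of either causes polycystic kidney disease. Pkd1 (ENSMUSG00000032855, chr17:24549834-24596508, plus strand) had 55.3 CPM in endothelial cells of sunitinib plus Yoda1 (142 UMIs, 46.6 to 65.2), 128 in sunitinib (155 UMIs, 109 to 150) and 109 in vehicle (115 UMIs, 90.3 to 131). In smooth muscle cells it had 144 in sunitinib plus Yoda1 (137 UMIs, 121 to 170), 192 in sunitinib (10824 UMIs, 188 to 196) and 152 in vehicle (9109 UMIs, 149 to 155). Every library had less Pkd1 in endothelial than in smooth muscle cells, the reverse of Piezo1. The log2 ratios of endothelial over smooth muscle cells were -1.38 in sunitinib plus Yoda1 (-1.73 to -1.03), -0.58 in sunitinib (-0.82 to -0.35) and -0.48 in vehicle (-0.75 to -0.21). The Pkd1 locus overlaps Tsc2 on the other strand. The sources used here do not say whether the counting used strand.

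In the summed UMIs Pkd2 was not apart between endothelium and smooth muscle beyond counting error. Its level in endothelial cells was 68.6 CPM in sunitinib plus Yoda1 (176 UMIs), 41.4 in sunitinib (50 UMIs) and 42.8 in vehicle (45 UMIs). In smooth muscle cells the level was 51.6 in sunitinib plus Yoda1 (49 UMIs), 36.2 in sunitinib (2044 UMIs) and 35.2 in vehicle (2108 UMIs). All 3 endothelial over smooth muscle intervals included 0, with log2 ratios of 0.41, 0.19 and 0.28 in the same order of libraries. In sunitinib plus Yoda1 the highest Pkd2 level was in fibroblasts, at 124 CPM (242 UMIs), above endothelial cells by a log2 ratio of 0.85 (0.57 to 1.14). Both polycystin genes dropped away in blood cells: Pkd1 had 23.1, 21.9 and 21.2 CPM in macrophages, B cells and T cells, and Pkd2 had 18.2 in macrophages but 2 UMIs in all in each of B and T cells. A Pkd2 UMI was seen in 2 of 654 B cells and 2 of 432 T cells, against 116 of 196 fibroblasts, which had a median of 9538 UMIs per cell against 4632 and 7490.

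Trpm7 encodes a magnesium- and calcium-permeable channel fused to a protein kinase and is broadly expressed. Its endothelial level was 115 CPM in sunitinib plus Yoda1 (295 UMIs), 58.7 in sunitinib (71 UMIs) and 58.0 in vehicle (61 UMIs), and its smooth muscle level 73.7, 62.8 and 57.7 (70, 3541 and 3456 UMIs). Endothelial cells were above smooth muscle cells in sunitinib plus Yoda1 (log2 ratio 0.64, 0.26 to 1.04) and neither way in sunitinib (-0.10) or vehicle (0.01). Across the 6 classes of sunitinib plus Yoda1, the level ran between 73.7 and 115 CPM, and no 2 neighbours in that order were apart beyond counting error. Classes further apart were: the log2 ratio to endothelial cells was -0.37 in macrophages (-0.68 to -0.06), -0.39 in T cells (-0.63 to -0.15) and -0.49 in B cells (-0.73 to -0.25). Fibroblasts were above smooth muscle cells (0.42, 0.01 to 0.83).

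Trpm4, the calcium-activated sodium channel known for depolarising arterial smooth muscle, had 13.2 CPM in endothelial cells of sunitinib plus Yoda1 (34 UMIs), 6.62 in sunitinib (8 UMIs) and 7.61 in vehicle (8 UMIs). Smooth muscle cells had 13.7, 8.95 and 8.35 (13, 505 and 500 UMIs). The intervals of the endothelial over smooth muscle ratios all included 0. In sunitinib plus Yoda1, fibroblasts had 16.4 CPM and macrophages 12.6, above B cells at 3.75 and T cells at 2.06.

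The TMEM63 proteins are single-protein stretch-activated channels related to the OSCA channels of plants. Tmem63a had 27.3 CPM in endothelial cells of sunitinib plus Yoda1 (70 UMIs, 21.3 to 34.4), 59.6 in sunitinib (72 UMIs, 46.6 to 75.0) and 65.6 in vehicle (69 UMIs, 51.1 to 83.1). In smooth muscle cells it had 36.8 in sunitinib plus Yoda1 (35 UMIs, 25.7 to 51.2), 31.4 in sunitinib (1773 UMIs, 30.0 to 32.9) and 28.3 in vehicle (1691 UMIs, 26.9 to 29.6). In the summed UMIs it was an endothelial-high gene in sunitinib (log2 ratio 0.92, 0.56 to 1.26) and vehicle (1.22, 0.85 to 1.56). It was not in sunitinib plus Yoda1 (-0.43, -1.04 to 0.20). Under the alternative settings the sunitinib ratio ran from -0.24 to 1.02 and the vehicle ratio from 1.05 to 1.89. At 2000 UMIs per cell, 4.72% of sunitinib endothelial cells (6 of 127) had a Tmem63a UMI, against 6.34% of smooth muscle cells. In vehicle these shares were 20.6% and 5.67%. The sign in sunitinib thus depended on the setting. Tmem63b was not apart between these 2 classes beyond counting error in any library. It had 24.5, 19.9 and 19.0 CPM in endothelial cells (63, 24 and 20 UMIs) and 28.4, 23.0 and 19.9 in smooth muscle cells (27, 1295 and 1188 UMIs). In sunitinib plus Yoda1 both genes were higher in fibroblasts, smooth muscle and endothelial cells, at 24.5 to 37.3 CPM, than in T cells, macrophages and B cells, at 6.64 to 11.8. Tmem63b overlaps Mrpl14 and Tmem63a overlaps 2210411M09Rik on the other strand.

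**Figure D2:**
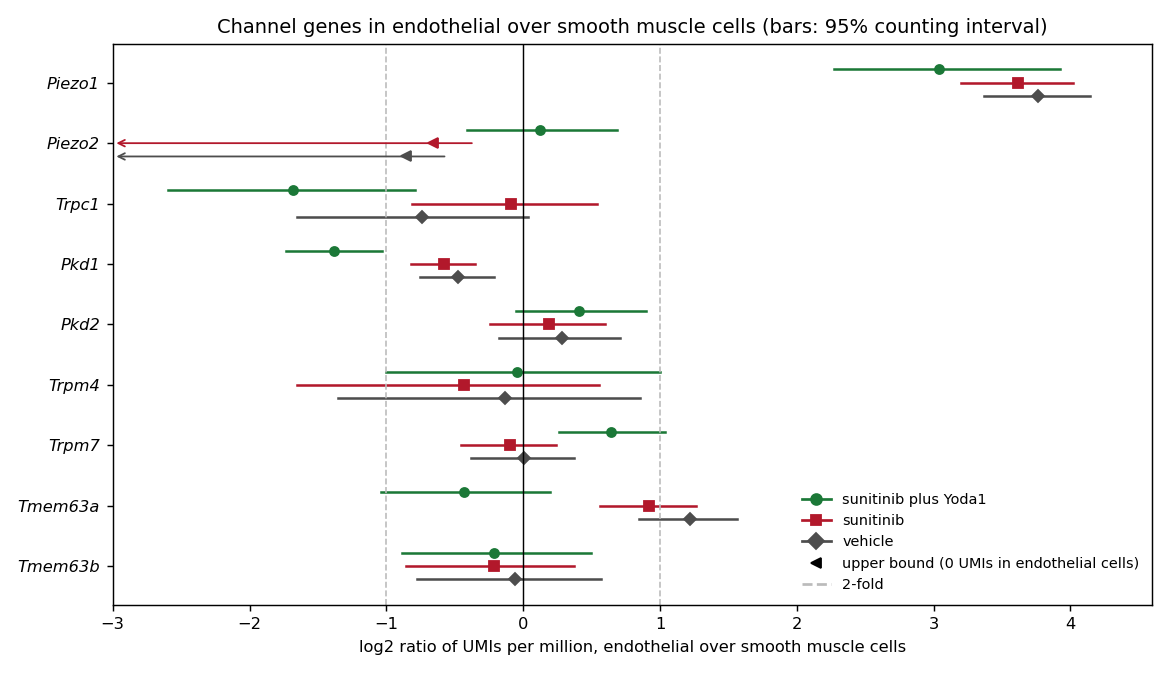
Log2 ratio of CPM in endothelial over smooth muscle cells for the 9 genes with enough UMIs, within each library, with bars for the 95% counting interval, dashed lines at 2-fold and arrows for bounds where endothelial cells had 0 UMIs. Piezo1 lies at 3.04 to 3.77 in all 3 libraries, Pkd1 at or below -0.48, and Tmem63a right of 0 in sunitinib and vehicle only.

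Counts of channel genes apart between the classes were read against all genes with at least 20 UMIs over both. In sunitinib plus Yoda1, 1 of 9 was at least 2-fold higher in endothelial than in smooth muscle cells, where 25.9% of genes were, and 2 of 9 at least 2-fold lower (Trpc1 and Pkd1), where 12.5% were. In sunitinib 1 of 9 was higher and 0 lower (18.8% and 13.7% of all genes). In vehicle 2 of 9 were higher, Piezo1 and Tmem63a, and 0 lower (19.1% and 14.4% of all genes). The endothelial cells of sunitinib plus Yoda1 had 151 CPM of the 5 smooth muscle markers, those of sunitinib 874 and those of vehicle 416, and smooth muscle cells had 7.37, 1.58 and 1.27 of the 5 endothelial markers.

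Sunitinib was next set against vehicle. In smooth muscle the differences were small. Pkd1 was higher, at 192 CPM in sunitinib against 152 in vehicle, a log2 ratio of 0.33 (0.29 to 0.37, 1.26-fold). Piezo2 was lower, at 3.92 against 5.16 (-0.40, -0.65 to -0.14), and Trpc1 was lower, at 17.6 against 20.7 (-0.23, -0.35 to -0.11). The Piezo2 value turned to 0.13 when each cell was thinned to 2000 UMIs, and that of Piezo1 to 0.28. Tmem63b (0.21, 0.10 to 0.32), Tmem63a (0.15, 0.06 to 0.25) and Trpm7 (0.12, 0.05 to 0.19) were slightly higher. Piezo1 (-0.18, -0.44 to 0.07), Trpm4 (0.10, -0.08 to 0.28) and Pkd2 (0.04, -0.05 to 0.13) were not apart beyond counting error.

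None of the 9 channel genes measured in smooth muscle was 1.5-fold higher or lower in sunitinib than in vehicle, where 7.62% of 13778 genes were higher and 4.7% lower. The median log2 ratio of the 9 was 0.10 and that of all genes 0.09, so that relative to all genes Trpm7 and Tmem63a hardly stood out. When library sizes were scaled by TMM, which put the median of all genes at 0.00, Pkd1 stood at 0.24, Trpm7 at 0.03 and Pkd2 at -0.05. Intervals as narrow as that of Pkd1 reflect the many UMIs, and the spread between mice is not in them.

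In the summed UMIs of endothelial cells no channel gene was apart between sunitinib and vehicle beyond counting error. Piezo1 had 52.9 CPM in sunitinib against 66.6 in vehicle (log2 ratio -0.33, -0.84 to 0.18), Pkd1 128 against 109 (0.23, -0.13 to 0.59) and Tmem63a 59.6 against 65.6 (-0.14, -0.64 to 0.36). The log2 ratios of Trpc1, Pkd2, Trpm7 and Tmem63b were 0.42, -0.05, 0.02 and 0.06. Under the alternative settings Tmem63a ran from -1.97 to 0.03, Pkd2 from -1.12 to 0.24 and Trpc1 from 0.19 to 1.04. At 2000 UMIs per cell, a Tmem63a UMI was seen in 4.72% of sunitinib (1.75 to 10.0) and 20.6% of vehicle endothelial cells (13.2 to 29.7). The sizes of these ratios thus depended on the setting. Of the 7 genes measured, 0 were 1.5-fold higher and 0 lower, where 14.1% and 6.41% of 8075 genes were, and the intervals for Piezo1 leave room for a 1.5-fold difference downward. The endothelial cells of sunitinib carried more of the 5 smooth muscle markers, 874 CPM against 416 in vehicle, and its part in these ratios was not tested.

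**Figure D3:**
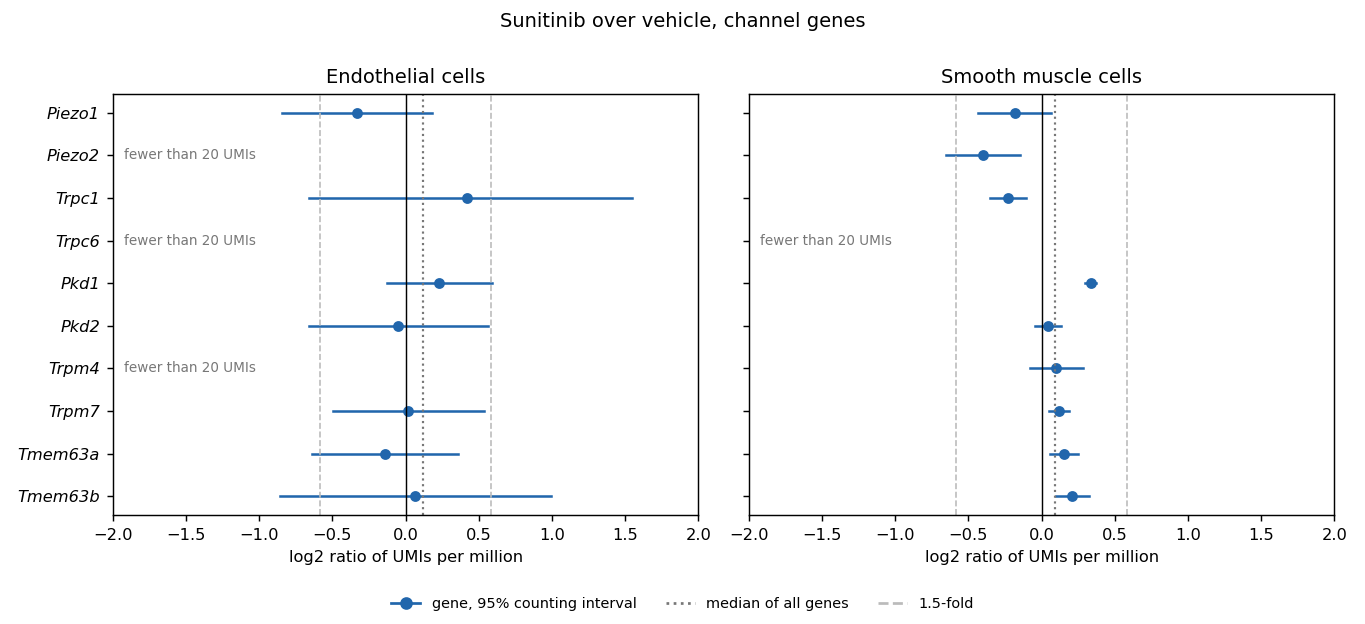
Log2 ratio of CPM in sunitinib over vehicle for each channel gene, in endothelial cells on the left and smooth muscle cells on the right, with bars for the 95% counting interval, a dotted line at the median of all genes and dashed lines at 1.5-fold. All smooth muscle values lie between -0.40 and 0.33, inside the 1.5-fold lines, and every endothelial bar crosses 0.

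Smooth muscle cells of the artery carry a positional code of Hox genes, and Piezo2 followed it. Cells with at least 1 UMI of 10 posterior Hox genes had 2.24 CPM of Piezo2 in sunitinib and 2.36 in vehicle, against 6.79 and 8.73 in cells without. The log2 ratio of cells with over cells without was -1.60 in sunitinib (-2.01 to -1.19) and -1.89 in vehicle (-2.28 to -1.51), and in sunitinib plus Yoda1 the 2 groups had 3 and 36 UMIs. Piezo2 was the 1 gene of 9 at least 2-fold lower in cells with Hox UMIs in both libraries, where 1.83% and 1.87% of genes were, and 0 of 9 were 2-fold higher (1.54% and 1.36%). Cells with Hox UMIs were also deeper, with means of 17539 and 13663 UMIs per cell with and without in sunitinib and 19051 and 17136 in vehicle. Piezo1 had a smaller difference in the same direction (-0.51, -0.88 to -0.13 in sunitinib and -0.39, -0.74 to -0.05 in vehicle). Within cells with Hox UMIs the sunitinib over vehicle log2 ratio of Piezo2 was -0.07 (-0.54 to 0.40), within cells without it was -0.36 (-0.68 to -0.05), and that of Pkd1 was 0.36 and 0.33. In endothelial cells with at least 3 Cd74 UMIs against the others, Piezo1 had 33.7 against 133 CPM in sunitinib plus Yoda1 (10 UMIs in 22 cells against 301 in 379, log2 ratio -1.98, -3.05 to -1.08). It had 56.1 against 51.8 in sunitinib and 58.3 against 79.2 in vehicle, with both intervals including 0.

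The sunitinib plus Yoda1 library was set against sunitinib within the limits given above. In endothelial cells Piezo1 was higher, 121 CPM against 52.9 (log2 ratio 1.19, 0.80 to 1.61, 2.29-fold), and Piezo2 had 115 UMIs against 0. With 0 taken as 3 UMIs, Piezo2 was 18.0-fold higher, and its interval began at a log2 ratio of 3.85. Thinned to 2000 UMIs per cell, the Piezo2 value, again with 0 taken as 3, was 0.98 on the log2 scale. Trpm7 (0.97, 0.59 to 1.36) and Pkd2 (0.73, 0.27 to 1.21) were higher as well, while Pkd1 (-1.21, -1.55 to -0.88), Tmem63a (-1.13, -1.62 to -0.63) and Trpc1 (-1.02, -1.97 to -0.06) were lower. Trpm4 had 13.2 CPM against 6.62, with an interval of -0.14 to 2.32 on the log2 scale, and Tmem63b a log2 ratio of 0.31. Thus 5 of 9 measured genes were 1.5-fold higher and 3 lower, where 39.8% and 19.1% of 10559 genes were, and the median of all genes was 0.28. Of the 5, Piezo2 (115 UMIs against 0) and Trpm4 (34 against 8) reached the minimum of 20 UMIs only through sunitinib plus Yoda1. Their place among the higher genes is thus partly set by that minimum. Thinning to 2000 UMIs per cell gave 3 higher and 1 lower of 5 measured, and ratios taken from the median of genes of like intron length gave 3 higher. The shares of all genes are for the sums before these changes. The difference between the share of channel genes and that of all genes was not tested.

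In smooth muscle cells of sunitinib plus Yoda1, of which there were 67, Piezo2 had 41.0 CPM against 3.92 in sunitinib (log2 ratio 3.39, 2.86 to 3.88) and Piezo1 had 14.7 against 4.31 (1.77, 0.88 to 2.55). Pkd1 was lower, 144 against 192 (-0.41, -0.67 to -0.17), and Pkd2 higher (0.51, 0.07 to 0.92). The intervals of Trpc1 (0.58), Trpm4 (0.61), Trpm7 (0.23), Tmem63a (0.23) and Tmem63b (0.31) included 0. That makes 3 of 9 at least 1.5-fold higher (Piezo1, Piezo2 and Trpm4) and 0 lower, where 32.9% and 10.4% of 12998 genes were. Thinning to 2000 UMIs per cell gave 6 higher, but the shares of all genes are for the sums before thinning, so this count cannot be read against them. TMM or median-of-ratios scaling gave 1 lower, Pkd1, and took Trpm4 under 1.5-fold. The Piezo2 value rests on 39 UMIs in 8 of the 67 cells, 12 of them in 1 cell, and its interval does not reflect this. The Piezo1 value rests on 14 UMIs in 8 cells, and at 2000 UMIs per cell none was left.

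Against vehicle, compared with the same library, the endothelial log2 ratios were 0.86 for Piezo1, 0.68 for Pkd2, 0.80 for Trpm4 and 0.99 for Trpm7. They were -0.98 for Pkd1, -1.27 for Tmem63a and -0.60 for Trpc1. Piezo2 stood at 3.97 with 0 UMIs taken as 3, and its interval began at 3.65. Of 9 genes, 5 were 1.5-fold higher and 3 lower (44.1% and 15.9% of all genes). Piezo2 (115 UMIs against 0) and Trpm4 (34 against 8) again reached 20 UMIs only through sunitinib plus Yoda1. TMM and median-of-ratios scaling each left 2 higher, and thinning left 2 higher of 5 measured. The shares of all genes under these 3 settings are not given, so those counts cannot be read against the shares above. The smooth muscle values were 1.59 for Piezo1, 2.99 for Piezo2 and 0.71 for Trpm4, with 3 of 9 higher and 0 lower (36.5% and 9.31% of all genes). Thinning gave 6 higher, again with no share of all genes after thinning to set beside it. Pkd1 in smooth muscle stood at -0.08 (-0.33 to 0.17), not apart from vehicle.

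Ratios of this library moved with intron length. The median log2 ratio over sunitinib, from the fifth of genes with the shortest introns to the fifth with the longest, was -0.29, -0.05, 0.24, 0.58 and 1.33 in endothelial cells and -0.01, 0.00, 0.09, 0.31 and 0.90 in smooth muscle cells. Piezo2 has 359809 annotated intron bases, Trpm7 73351, Piezo1 59697 and Pkd1 29260. Measured from the median of genes of like intron length, Piezo2 (2.85, with 0 UMIs taken as 3) and Piezo1 (0.61) stayed above 0 in endothelial cells. Pkd1 (-1.45), Tmem63a (-1.36) and Trpc1 (-1.60) stayed below 0, and Trpm7 moved to -0.36. In smooth muscle Piezo2 was 2.49 and Piezo1 1.47 above that median, while Pkd1 was at -0.72 and Trpm7 at -0.67. Over vehicle, endothelial Piezo1 stood only 0.15 above the median of genes of like intron length, at which 56.1% of those genes lay below it, so its 0.86 was close to what genes with such introns showed. The same measure over vehicle was 2.48 for Piezo2 (0 UMIs taken as 3), -0.50 for Trpm7, -0.03 for Pkd2 and -1.34 for Pkd1 in endothelial cells. In smooth muscle cells it was 1.21 for Piezo1 and 2.02 for Piezo2. The sources used here do not say whether intron reads were counted in each library.

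**Figure D4:**
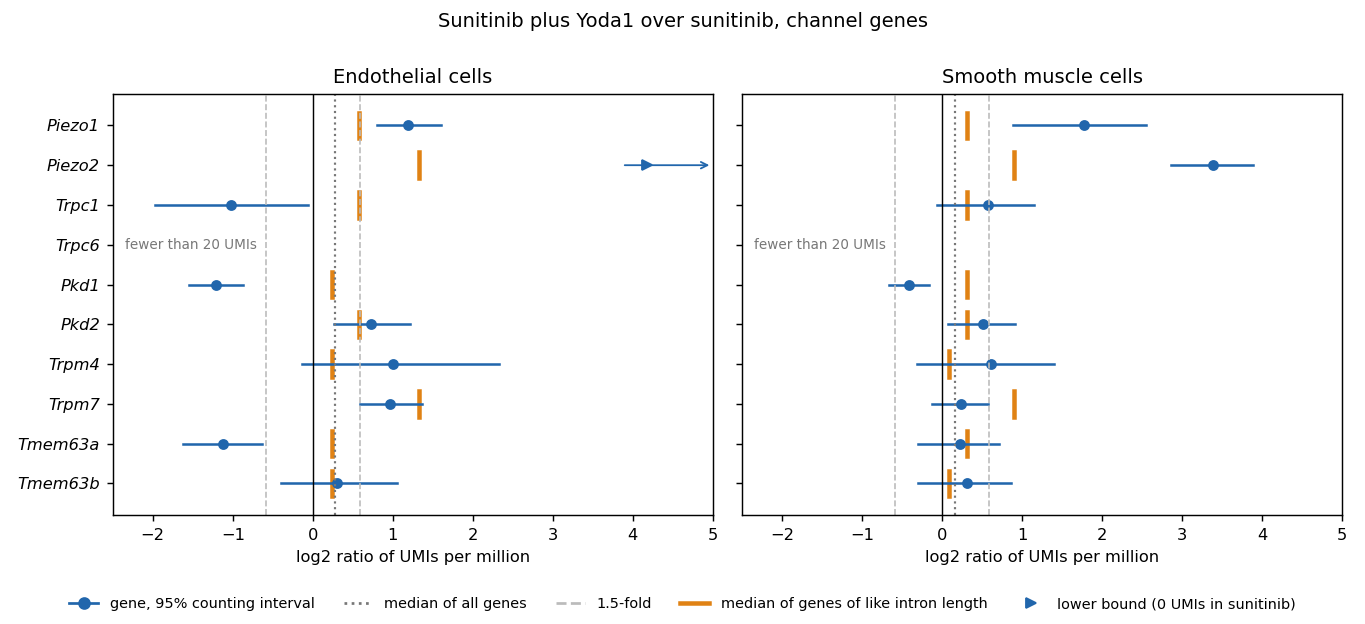
Log2 ratio of CPM in sunitinib plus Yoda1 over sunitinib for each channel gene, in endothelial cells on the left and smooth muscle cells on the right, with 95% counting intervals, the median of all genes as a dotted line, 1.5-fold as dashed lines and the median of genes of like intron length as an orange tick. Piezo1 and Piezo2 lie right of their ticks in both classes, Pkd1 lies left of it in both, and Trpm7 lies left of it in both.

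The endothelial markers that set the 2 libraries apart moved beside these ratios. In endothelial cells 5 of 5 capillary genes were found in sunitinib plus Yoda1 and 2 of 5 in sunitinib, at the sums given above. The 7 lymphatic genes summed to 1059 CPM in sunitinib plus Yoda1 and 24.0 in sunitinib, and 5 mural genes to 243 and 35.6. B cell and T cell markers summed to 150 and 163 CPM in sunitinib plus Yoda1 and 0 in sunitinib. Without cells carrying at least 2 lymphatic genes Piezo2 was 2.69 higher on the log2 scale, with 0 UMIs taken as 3, and Piezo1 1.26 higher. With an endothelial gate on Cdh5 alone, 5 channel genes were 1.5-fold higher and 3 lower, as with the gate on both genes. Neither change sets capillary against large-vessel endothelium, and the part of cell makeup in the ratios was not tested.

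Lists of related genes, 6 in all and chosen with earlier results of these data known, were read beside the channel genes. Of 30 other mechanosensitive channels, 10 were measured in smooth muscle of sunitinib and vehicle, and 0 of them were 1.5-fold lower in sunitinib. Tmem120a was 1.5-fold higher (38.9 against 25.2 CPM, log2 ratio 0.62, 0.53 to 0.72). The median of the 10 was 0.09, the same as that of all genes, and the lowest were Tmc6 (0.01) and Tmc7 (-0.50). Among 24 measured partners of PIEZO1 and its calcium signalling, 0 were higher and 3 lower, with a median of -0.01, where 7.62% and 4.7% of all genes were. The lowest were Rcan1, the feedback inhibitor of calcineurin that NFAT itself induces, at 30.5 against 66.6 CPM (-1.13, -1.21 to -1.05), and Nfatc1, one of the NFAT factors, at 11.8 against 22.4 (-0.92, -1.06 to -0.79). The highest were Nos3, the endothelial nitric oxide synthase, at 30 against 25 UMIs (0.35, an interval that includes 0), and Nfatc3 (0.29, 0.18 to 0.41).

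Rcan1 was also the lowest of 20 measured PIEZO1 partners in endothelial cells, at 18.2 CPM in sunitinib against 44.7 in vehicle (log2 ratio -1.30, -2.10 to -0.54), and Itpr1 was next (-0.30). The highest were Itpr2, an intracellular calcium release channel, at 138 against 78.0 (0.82, 0.43 to 1.22), and Nfatc3 (0.66, -0.12 to 1.48). In all, 2 of the 20 were 1.5-fold higher and 1 lower, where 14.1% and 6.41% of all genes were. In the other lists 1 of 5 other mechanosensitive channels was higher and 1 lower, 0 and 1 of 9 TRPC partners, 1 and 1 of 8 polycystin partners, 0 and 0 of 3 TRPM relatives, and 0 and 1 of 2 excitation genes.

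The remaining lists differed little between sunitinib and vehicle in smooth muscle. For TRPC and store-operated partners, 0 of 12 were lower, with a median of -0.05, Orai3 at 0.28, Cav1 at -0.25 and Homer1 at -0.56. For polycystin and cilium partners, 1 of 13 was higher, Bicc1 (0.68), with Bbs1 at 0.43, Arl13b at -0.11 and Kif3a at -0.30. For TRPM relatives, 0 of 7 passed either way, from Trpm3 (0.35) and Cnnm3 (0.20) to Cnnm4 (-0.15) and Cnnm2 (-0.20). For 16 smooth muscle excitation genes, 1 was higher, the potassium channel gene Kcna5 (1.03), followed by Kcnj8 (38.0 against 26.6, 0.52), with Adra1a (-0.30) and Cacnb2 (-0.32) lowest. In sunitinib plus Yoda1 over sunitinib, 12 of the 16 excitation genes were 1.5-fold higher and 0 lower in smooth muscle, with a median of 1.68 against 0.16 for all genes, of which 32.9% were higher and 10.4% lower. The highest were Ednra (4.49) and Cacna1c, the pore of the L-type calcium channel, at 449 against 20.7 CPM (4.44), and the lowest Kcnmb1 (-0.10) and Kcnj8 (-0.13). These ratios rest on 67 smooth muscle cells of sunitinib plus Yoda1. They were not set against genes of like intron length, whose median reached 0.90 in the fifth with the longest introns. The other lists were nearer to all genes, with 4 higher and 3 lower of 9 other mechanosensitive channels (median 0.05), 9 and 2 of 23 PIEZO1 partners (0.17), 5 and 0 of 12 TRPC partners (0.55), 3 and 3 of 13 polycystin partners (-0.14) and 2 and 0 of 7 TRPM relatives (0.15).

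In endothelial cells of sunitinib plus Yoda1 over sunitinib, 9 of 23 measured PIEZO1 partners were 1.5-fold higher and 4 lower, with a median of 0.50 against 0.28 for all genes, of which 39.8% were higher and 19.1% lower. The highest were Adm, the vasodilator peptide adrenomedullin (119 UMIs against 3, log2 ratio 4.22, 2.64 to 6.52), and Nfatc2 (2.82, with 0 UMIs taken as 3). The lowest were Atp2a2 (-0.96) and Nos3, at 126 against 318 CPM (-1.34). Of the other mechanosensitive channels 6 of 9 were higher and 3 lower, with Trpm3 (246 UMIs against 2, 5.86, 3.99 to 8.91) and Panx1 (33 UMIs against 3, 2.37, 0.70 to 4.72) highest and Tmem120a (-1.48) and Trpv4 (14.8 against 60.4, -2.03) lowest. Among TRPC partners 7 of 12 were higher and 2 lower, from Plcb1 (4.11) and Dgkz (2.78) to Plcb3 (-0.68) and Orai1 (-1.23). For polycystin partners 3 of 11 were higher and 4 lower (median -0.41), for TRPM relatives 3 and 1 of 6 (0.56) and for excitation genes 5 and 0 of 6 (1.37). These lists were not set against genes of like intron length, whose endothelial median reached 1.33 in the fifth with the longest introns.

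Over the 10 sums of class and library with at least 50 cells, the genes whose log2 levels most resembled each channel gene among 12148 ranked genes were Elk3, Sptlc2 and Xaf1 for Piezo1 (Pearson r of 0.97 each) and Tbc1d12, Igfbp5 and 9530026P05Rik for Piezo2 (0.95). For Trpc1 they were Lrig3, Fkbp10 and Evc2 (0.99), for Pkd1 Sod3, Ptgis and Jmjd8 (0.99) and for Pkd2 Tmtc3, Naprt and Upp2 (0.98 to 0.99). For Trpm7 they were Usp33, Peak1 and Rab40c (0.95), for Trpm4 Iqsec2, Carhsp1 and Fbh1 (0.95 to 0.97), for Tmem63a Nrbp2, Cd99l2 and Adgra3 (0.98) and for Tmem63b Hoxa3, Ankrd29 and Sh3d21 (0.98). The sums are not independent, since 6 of them come from 1 library and share its depth and makeup, and high values are what a ranking of so many genes over 10 points returns.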

How the data were processed

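Per the file headers, the authors deposited 1 matrix of UMI counts per gene and cell barcode for each library, made with Cell Ranger 7.1.0 for sunitinib plus Yoda1 and 6.0.0 for sunitinib and vehicle, and the submitters' processing notes name Cell Ranger, Seurat and mm10. Barcode totals began at 500 UMIs. From these counts, only cells with 500 or more UMIs, 300 or more genes and no more than 15% of UMIs from mitochondrial genes entered.

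Gates were Pecam1 plus Cdh5 of at least 2 UMIs (endothelial), Dcn plus Pdgfra 2 (fibroblast), Cd79a 2 (B cell), Cd3e 1 (T cell), Csf1r 1 (macrophage), and Myh11 1 with Myh11 plus Acta2 at 0.2% of UMIs (smooth muscle). Cells passing several gates were left out (691, 396 and 505), and no doublet caller was run. UMIs were summed per class and library and scaled to CPM. Ratios carry exact conditional binomial intervals, levels exact Poisson and shares exact binomial ones, and 0 UMIs were set to 3. Genes needed 20 UMIs over both sums. Intron lengths and gene positions are from GENCODE on GRCm38, the build mm10.

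The channel genes and all lists were chosen with earlier results of these data known. Of each list, the 2 highest and 2 lowest measured genes are named, and for each channel gene with enough UMIs the 3 most alike. One result on the lists is not reported here. Python 3.11.15, numpy 2.4.6, scipy 1.17.1, pandas 2.3.3, R 4.3.3, edgeR 4.0.16 (TMM) and DESeq2 1.42.0 (median-of-ratios factors) were used. The ratio code was tested on simulated data. Alternatives covered scaling, thinning, gates, filters and intron length.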

Additional observations from a re-analysis of the deposited data

Results flagged for a closer look

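Cells that passed more than 1 gate were left out of the comparisons, and 4 values in them lay above the vehicle library beyond counting error. Piezo1 had 33.1 CPM in mixed cells of sunitinib plus Yoda1 (189 UMIs), against 8.57 in those of vehicle (100 UMIs). Trpm7 had 93.2 in sunitinib plus Yoda1 (532 UMIs) and 66.8 in sunitinib (527 UMIs), against 54.8 in vehicle (640 UMIs). Pkd1 had 212 in sunitinib (1674 UMIs), against 172 in vehicle (2008 UMIs). The mixed cells were of unlike kinds. Of the 691 in sunitinib plus Yoda1, 397 passed the endothelial and B cell gates and 200 the endothelial and T cell gates. In vehicle 406 of 505 passed the smooth muscle and endothelial gates, and in sunitinib 306 of 396. The 5 smooth muscle markers summed to 620 CPM in mixed cells of sunitinib plus Yoda1 and 18213 in those of vehicle. B and T cells of sunitinib plus Yoda1 each had 31.8 CPM of Piezo1. The part of this makeup in the values was not tested.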

How the results depend on the processing

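Of the log2 ratios of single genes, 628 under the listed alternatives and 251 under those added after seeing the data kept their place, and 66 and 4 moved. The 1 labelled reversed was Trpm7 in endothelial cells of sunitinib plus Yoda1 over sunitinib, at -0.36 from the median of genes of like intron length. Those labelled moved also include changes of sign. In smooth muscle of sunitinib over vehicle, thinning took Piezo2 from -0.40 to 0.13 and Piezo1 from -0.18 to 0.28. For endothelial over smooth muscle cells of sunitinib plus Yoda1, Piezo2 went from 0.13 to -1.25 without cells with lymphatic genes. Of the counts of channel genes, 142 and 58 stayed within 1.5 times and 18 moved. Of the list medians 18 stayed and 6 moved.

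Thinning to 2000 UMIs per cell moved most: in smooth muscle it gave 6 higher in sunitinib plus Yoda1 over sunitinib and 6 over vehicle, in endothelial cells 3 higher and 1 lower over sunitinib, 2 higher over vehicle and 2 lower in sunitinib over vehicle (5 genes measured in each), and for endothelial over smooth muscle cells 2 lower in sunitinib and 1 lower in vehicle. For sunitinib plus Yoda1 over sunitinib in smooth muscle, TMM and median-of-ratios factors each gave 1 lower (Pkd1), and the intron-length medians gave 2 lower in smooth muscle and 3 higher in endothelial cells. Over vehicle in endothelial cells, TMM and median-of-ratios factors each gave 2 higher. At most 5% mitochondrial UMIs gave 1 lower in sunitinib over vehicle in smooth muscle, Piezo2 at -0.66, with 454 and 471 cells left, and it left 7 smooth muscle cells of sunitinib plus Yoda1, too few for a value. The mean over cells gave 1 higher in sunitinib over vehicle in endothelial cells. In the sunitinib library, stricter gates gave 1 lower in endothelial than in smooth muscle cells, and leaving out the 5% deepest cells gave 2 higher. The shares of all genes under these settings are not given, so the changed counts cannot be read against them. The cause of these moves was not tested.

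No paired analysis was possible because each group is 1 library. Depth limits Trpc6, Trpm4 in endothelial cells and every smooth muscle value of sunitinib plus Yoda1, whose 67 cells hold 950354 UMIs.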
